A study of Mus musculus with 6 samples.

Results

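The aminoacyl-tRNA synthetases are the enzymes that load each amino acid onto its transfer RNA. Their transcripts were followed in M2 macrophages (Mφs) in which a fragment of a glutamate tRNA had been targeted with an antisense inhibitor. The members were the protein-coding rows of the deposited table whose symbol was a single amino acid letter followed by ars, or Eprs, with or without a final 1 or 2. This rule found 35 of the 41549 genes listed. Of these, 16 encode cytosolic enzymes, 17 encode mitochondrial enzymes, and Gars and Kars encode enzymes of both compartments. The rule itself uses no measured value.

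Bone marrow-derived Mφs came from adult wild-type C57Bl/6N mice. The marrow cells were differentiated with macrophage colony-stimulating factor, transfected while still unpolarized, and then exposed to IL-4 and IL-13, which polarize them to M2. In the αGlu group the transfected oligonucleotide was an antisense LNA inhibitor directed at 5′tRF-Glu(CTC), the fragment cut from the 5′ end of the glutamate tRNA with the anticodon CTC. In the Ctr group it was a control LNA inhibitor, so both groups shared the lipofection, the LNA chemistry and the cytokines, and αGlu minus Ctr is the only contrast of the design. Each group had 3 stranded mRNA libraries, described by the study as independent experiments. The labels do not say which animals or cultures they came from, so p-values measure the spread between these libraries.

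An aminoacyl-tRNA synthetase activates its amino acid with ATP and transfers it to the 3′ end of the matching tRNA, and class I and class II enzymes do so with unrelated catalytic folds. Most amino acids have one nuclear gene for the cytosolic enzyme and another for the enzyme imported into mitochondria. Several cytosolic enzymes are held together in a multisynthetase complex, and transcription of many cytosolic members is known to be driven by ATF4 when amino acids run short or uncharged tRNA accumulates.

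The sequence of the antisense and of the 21-base stretch it was made against is given because that stretch belongs to a tRNA that Eprs charges in the cytosol. The study reports the fragment itself to be longer than this stretch. Capitals mark the 20 bases of the target, positions 2 to 21 counted from its 5′ end, that are complementary to the antisense.
Antisense: taaccactagaccaccaggg
Target: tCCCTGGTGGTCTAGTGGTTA
In the transcripts of the 35 members in GENCODE release M21, the longest exact stretch of this 21-base target ran for 11 bases, in Mars1. A stretch at least as long was present in 1.2% of 21986 protein-coding genes. In Eprs the longest stretch was 10 bases. The fragment itself is not read by mRNA libraries, and whether it was blocked cannot be read from them.

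Total exon counts lay between 17912831 and 30386653 per library, and the members together took 0.169% to 0.223% of them. Each member had at least 73 reads in every library, and all 35 passed the low-count filter that left 11933 genes for the test. Markers of the labelled cell type were present, with Adgre1, Csf1r, Cd68, Itgam, Mertk and Fcgr1 summing to between 6070 and 7478 CPM, which are counts scaled to the size of each library after adjustment by the trimmed mean of M-values (TMM). Lymphocyte markers summed to at most 0.172 CPM, dendritic cell markers to at most 1.21 CPM and fibroblast markers to at most 6.45 CPM. Of the neutrophil list, Ly6g was at 0 reads in all libraries and the only marker above 3 CPM was Csf3r, with 103 to 183 CPM in Ctr and αGlu 1 but 536 and 607 CPM in αGlu 2 and 3. The part of other cells in the results was not tested, and in bulk RNA fewer cells of a type and less RNA per cell cannot be told apart. αGlu 1 stood apart from its group, since over all genes tested its log2 CPM correlated with the Ctr libraries at a Pearson r of 0.966 to 0.982 and with αGlu 2 and 3 at 0.929. Results are therefore given with and without αGlu 1. The Ctr group was not uniform either. Ctr 1 correlated with Ctr 2 and 3 at 0.981 and 0.978, while Ctr 2 and 3 correlated with each other at 0.988. With αGlu 1 the values of Ctr 2 and 3 were 0.981 and 0.982. In Ctr 1, 63 genes exceeded 2 times every other library, against 5 to 29 in each of the others.

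No synthetase transcript passed the test in the comparison of αGlu with Ctr. A gene was called where the adjusted p was below 0.1 and the log2 fold change beyond 1 in either direction. By edgeR's quasi-likelihood test, with Benjamini-Hochberg adjustment over all genes, 0 of 35 members were called, against 0% of all genes tested. The smallest adjusted p of a member was 0.155, for Aars. At an unadjusted p under 0.05, 7 members were higher in αGlu, against a background of 12.7% of all genes, and 1 was lower, against 11.9%. Limma-voom also called 0 members and 0% of genes. Its unadjusted p was under 0.05 for 7 members that were higher, against 11% of genes, and for 1 that was lower, against 15%. DESeq2 called 0 members and 8.16% of genes. With no limit on the fold change, DESeq2 gave 4 members that were higher at an adjusted p under 0.1, namely Aars, Tars2, Mars1 and Sars, against 7.77% of genes.

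The members nevertheless leaned to one side. Fitted log2 fold changes were positive for 27 members and negative for 8, with a median of 0.11, while over all 11933 genes 6200 were positive and the median was 0.02. With library size alone in place of TMM factors both medians were higher, at 0.20 and 0.10. The median absolute change of the members, 0.13, was below that of all genes, 0.24. In 9 members all 3 αGlu libraries lay above all 3 Ctr libraries, against 14.2% of all genes, and the opposite held for Mars2 alone, against 15.9% of genes. Those 9 of 35 members were Aars, Yars2, Tars2, Mars1, Sars, Dars, Lars, Kars and Hars2.

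**Figure D1:**
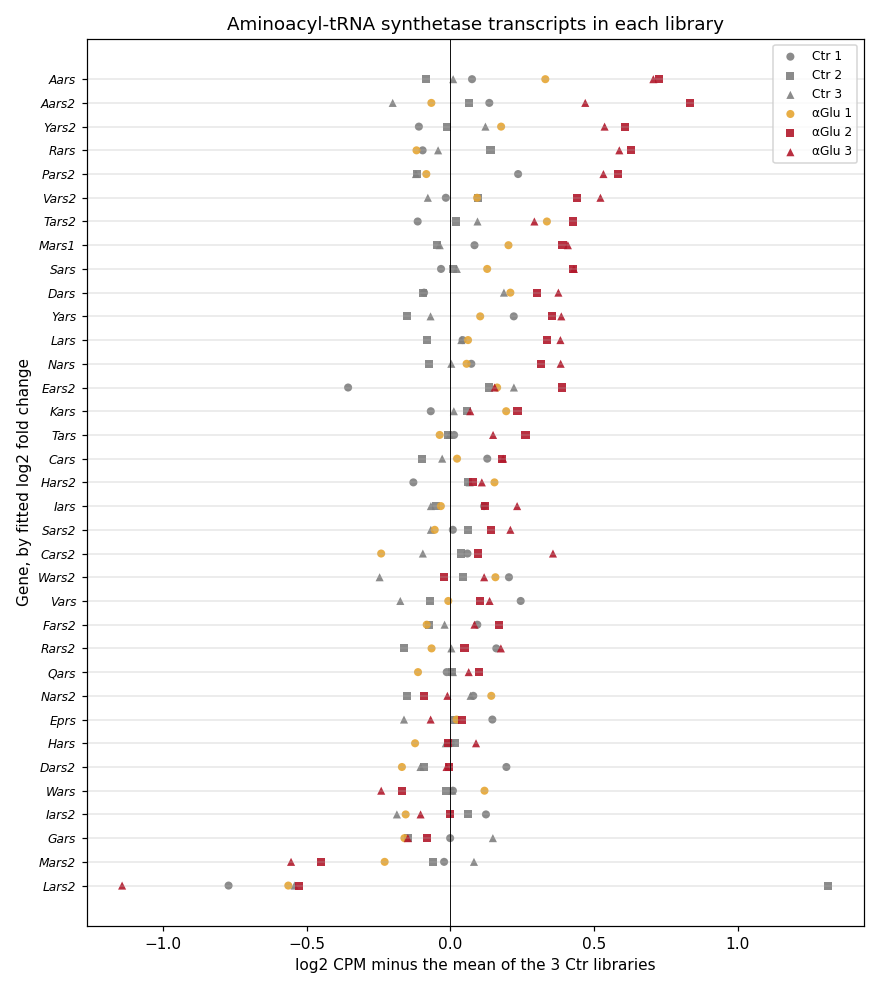
Each row is a gene, ordered by fitted log2 fold change, and each point is one library, placed on the x axis by its log2 CPM minus the mean of the 3 Ctr libraries, with a marker shape for the library number that does not mean pairs. In upper rows such as Rars, Aars2 and Pars2, αGlu 2 and αGlu 3 lie to the right of the Ctr libraries while αGlu 1 lies near them. In others, such as Aars and Tars2, αGlu 1 also lies to the right of every Ctr library. In the lowest row Lars2 of Ctr 2 stands alone at the right.

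The lean was seen in αGlu 2 and αGlu 3. The median member lay 0.04, -0.01 and -0.02 log2 units from the Ctr mean in Ctr 1, 2 and 3, and 0.02, 0.17 and 0.17 in αGlu 1, 2 and 3. αGlu 1 thus stood among the Ctr libraries, and the other two did not. The corresponding medians over all genes were between 0.00 and 0.02 in every library. The deposited TPM, in which reads are scaled for exon length and depth, were summed over the 35 members. The sums were 1092, 1062 and 1046 in Ctr, and 1104, 1355 and 1382 in αGlu 1, 2 and 3. TPM here and below carry no TMM adjustment, which would lower αGlu 2 and 3 relative to Ctr. The TMM factors were 0.95 to 0.99 in Ctr and 0.97, 1.05 and 1.07 in αGlu 1, 2 and 3. In 15 members αGlu 1 lay inside the Ctr range, against 42.6% of all genes, and in 8 of these αGlu 2 and αGlu 3 both exceeded every Ctr library, a pattern that 13.3% of all genes had.

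Leaving out αGlu 1 changed what the test gave. In that fit, with Benjamini-Hochberg adjustment over 12340 genes, edgeR's quasi-likelihood test still called 0 members, compared with 18.6% of genes, since the largest positive fold of a member was 1.64 and Lars2, at -1.13 on the log2 scale, had an adjusted p of 0.217. With no limit on the fold, a setting chosen after seeing the data, 14 members were higher at an adjusted p under 0.1, against 23.5% of genes, and 2 were lower, against 25.6%. The 14 comprised 9 cytosolic enzymes (Aars, Rars, Sars, Mars1, Yars, Lars, Nars, Dars and Tars) and 5 mitochondrial ones (Aars2, Yars2, Pars2, Vars2 and Tars2). The 2 that were lower were Mars2 and Wars. The median of the members was then 0.17 and that of all genes 0.01. αGlu 1 was singled out because it resembled Ctr in these same data, so p-values without it depend on that choice, here and below. With αGlu 2 or αGlu 3 left out instead, adjusted p-values by the same test reached 0.427 for Aars, 0.600 for Rars and 0.448 for Mars2. Without αGlu 1, 20 members were higher with no overlap, against 33.7% of genes, and 2 were lower, against 32.2%. Without Ctr 1, 16 members were higher with no overlap, against 19.1% of genes, and 1 was lower, against 18.5%. Without Ctr 2 the counts were 10 higher, against 18% of genes, and 2 lower, against 19.7%. Without Ctr 3 they were 11, against 21%, and 2, against 20.8%. With αGlu 2 left out 9 were higher, against 16%, and with αGlu 3 left out 10 were, against 16.3%, while 1 was lower each time, against 17.7%.

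**Figure D2:**
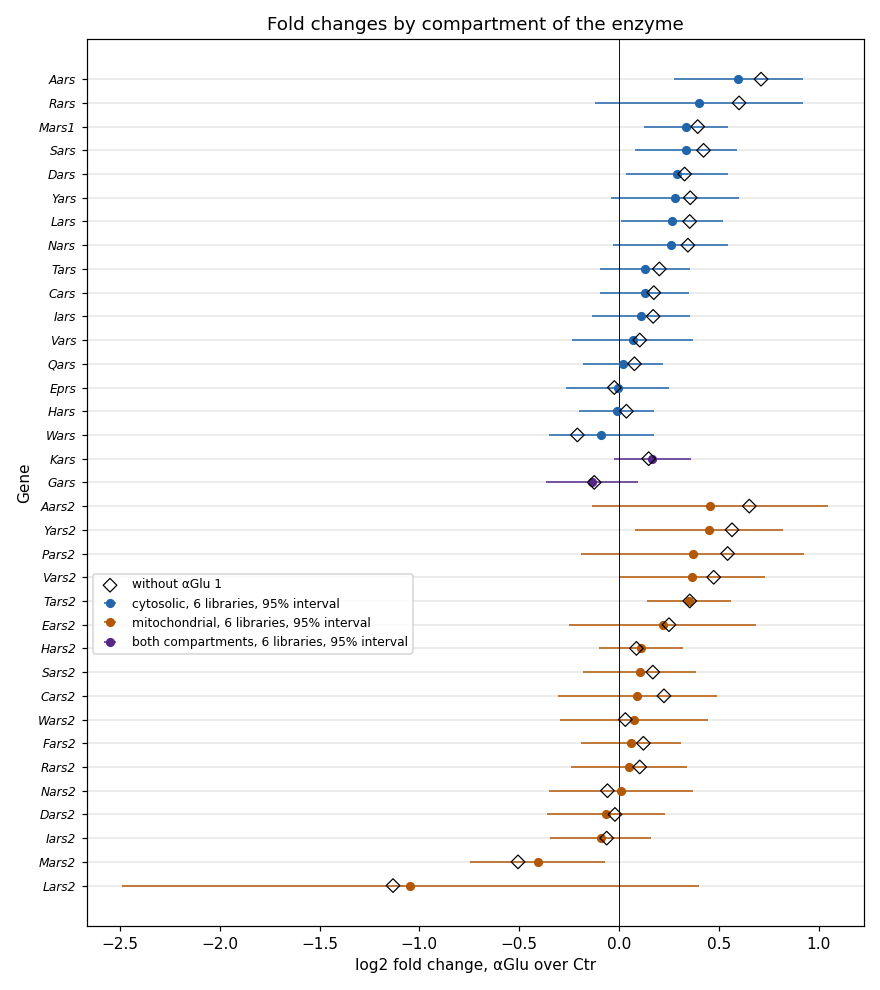
Points are fitted log2 fold changes of αGlu over Ctr from all 6 libraries with 95% intervals, coloured by the compartment in which the enzyme works, and open diamonds are the same without αGlu 1. Most points lie at or right of 0, the interval of Lars2 spans from -2.49 to 0.40, and the diamonds of Aars, Rars and Aars2 lie right of their points.

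The cytosolic enzymes carried most of the abundance. Their 16 genes summed to 822, 774 and 779 TPM in Ctr, and to 833, 1049 and 1086 TPM in αGlu 1, 2 and 3. Their median log2 fold change was 0.19, 13 were positive, and 5 were higher in αGlu with no overlap, against 14.2% of all genes. Without αGlu 1 the median was 0.26. All of these 16 genes had log2 fold changes between -0.09 and 0.60.

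Aars, the alanine enzyme, had the highest fold change of the family. It lies at chr8:111033144-111057664 on the plus strand (GRCm38). Its level was 129.7, 116 and 124 CPM in Ctr 1, 2 and 3, and 155, 204 and 201 CPM in αGlu 1, 2 and 3. All αGlu libraries were above all Ctr libraries, and αGlu 1 lay between Ctr and the other αGlu libraries. The fitted fold was 1.51, which is 0.60 ± 0.13 on the log2 scale (SE, edgeR's quasi-likelihood test, adjusted p 0.155). Without αGlu 1 it was 0.71 ± 0.08 (adjusted p 0.00117 by the same test). Of its annotated exonic bases, 14.3% are shared with Exosc6 on the same strand, which was listed at 0 reads in every library, so reads of that stretch cannot be divided between these genes.

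Rars, the arginine enzyme, which belongs to the multisynthetase complex, showed the split within αGlu most plainly. It stood at 133, 157 and 138 CPM in Ctr, at 131 CPM in αGlu 1, and at 221 and 214 CPM in αGlu 2 and 3. αGlu 1 was thus the lowest of the 6 libraries and the other αGlu libraries the highest. The log2 CPM of αGlu 1 was 0.73 below the mean of αGlu 2 and 3, the largest such gap among the members. The log2 fold change was 0.40 ± 0.21 with all libraries (edgeR's quasi-likelihood test, adjusted p 0.278) and 0.60 ± 0.10 without αGlu 1 (adjusted p 0.00416).

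Unlike Rars, 4 members of the complex were higher with no overlap. Mars1, the methionine enzyme, which loads initiator tRNA as well, stood at 39.2, 35.8 and 36.1 CPM in Ctr against 42.6, 48.5 and 49.1 CPM in αGlu 1, 2 and 3. It had a log2 fold change of 0.34 ± 0.09 and shares 1.99% of its exonic bases with Ddit3 on the opposite strand. Dars, for aspartate, had 63.1, 63.0 and 76.5 CPM in Ctr and 77.7, 82.8 and 87.3 CPM in αGlu, and Ctr 3 came close to αGlu 1. For Lars, the cytosolic leucine enzyme that also serves as a leucine sensor for mTORC1, the values were 59.2, 54.3 and 59.0 CPM in Ctr and 59.9, 72.5 and 74.9 CPM in αGlu. Here the gap between the groups was set by αGlu 1, which exceeded the highest Ctr library only slightly. Kars, which serves lysine in both compartments, was at 71.1, 77.5 and 75.2 CPM in Ctr against 85.3, 87.6 and 78.2 CPM in αGlu. The log2 fold changes were 0.29 ± 0.11 for Dars, 0.27 ± 0.10 for Lars and 0.17 ± 0.08 for Kars. The adjusted p-values of all 4 genes lay between 0.156 and 0.242 (edgeR's quasi-likelihood test). Over the 8 enzymes of the complex the median was 0.22, with 4 of them higher with no overlap, against 14.2% of all genes. Over the 10 cytosolic enzymes outside it, Gars included, the median was 0.13 with 2 higher.

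The glutamate and glutamine enzymes of the complex gave values near 0. Eprs, which joins the glutamate and the proline enzyme in one protein and charges the tRNA from which the targeted fragment derives, lies at chr1:185363044-185428360 on the plus strand. It stood at 165, 151 and 133 CPM in Ctr against 151, 153 and 142 CPM in αGlu. The αGlu libraries lay inside the Ctr range. The log2 fold change was -0.01 ± 0.10 with a 95% interval of -0.26 to 0.25 (edgeR's quasi-likelihood test, adjusted p 0.968), and its sign turned with library size alone, where it was 0.08. Qars, for glutamine, had 90.5, 91.6 and 91.9 CPM in Ctr and 84.5, 97.8 and 95.5 CPM in αGlu, which lie on both sides of Ctr. Its log2 fold change was 0.02, with an interval of -0.18 to 0.22. These intervals leave out changes of 1.5-fold in either direction for both genes.

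Outside the complex, Sars, the serine enzyme that also charges selenocysteine tRNA, had 92.8, 95.6 and 96.4 CPM in Ctr and 104, 127 and 128 CPM in αGlu 1, 2 and 3. The groups did not overlap, and αGlu 1 was the nearest to Ctr. Its log2 fold change was 0.33 ± 0.10 (edgeR's quasi-likelihood test, adjusted p 0.162). Nars, for asparagine, was the most abundant member per length. It had 207, 186 and 197 CPM in Ctr and 204, 245 and 256 CPM in αGlu, where αGlu 1 fell inside the Ctr range. The log2 fold change of Nars was 0.26 ± 0.12.

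Wars, for tryptophan, is known as a gene induced by interferon-γ. It stood at 55.4, 54.5 and 55.3 CPM in Ctr, against 59.8, 48.95 and 46.6 CPM in αGlu 1, 2 and 3. αGlu 1 was above every Ctr library and the other αGlu libraries below, and the log2 fold change was -0.09 ± 0.11. Over a list of 14 interferon-γ response genes the median was 0.99 in the same libraries. With no overlap, 10 were higher and 1 was lower, against 14.2% and 15.9% of all genes, and 0 were called. The largest log2 fold changes of this list were those of the chemokine genes Cxcl9 and Cxcl10, at 7.22 and 4.35, from levels near 0 in Ctr. Cxcl9 had at most 0.09 CPM in Ctr and 5.85, 6.42 and 3.34 CPM in αGlu 1, 2 and 3. Cxcl10 had at most 0.37 CPM in Ctr and 0.46, 7.43 and 5.13 CPM in αGlu 1, 2 and 3. Gars, the glycine enzyme of both compartments, had 75.5, 68.25 and 83.7 CPM in Ctr and 67.6, 71.3 and 68.2 CPM in αGlu. Its log2 fold change of -0.13 ± 0.09 was among the 4 lowest of the family, and the groups overlapped.

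The mitochondrial enzymes were less uniform. Their 17 genes summed to 147, 171 and 137 TPM in Ctr and to 145, 169.6 and 167 TPM in αGlu 1, 2 and 3. The sum was highest in Ctr 2, and Lars2 made up 44.5 TPM of it there. The median log2 fold change was 0.09 and 13 were positive. With no overlap, 3 were higher and 1 was lower, against 14.2% and 15.9% of all genes. Without αGlu 1 the median was 0.12.

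Among those higher, Yars2, the mitochondrial tyrosine enzyme, had 6.68, 7.15 and 7.84 CPM in Ctr and 8.14, 10.99 and 10.5 CPM in αGlu. It had a log2 fold change of 0.45 ± 0.15 (edgeR's quasi-likelihood test, adjusted p 0.170), and αGlu 1 lay close above Ctr 3. Tars2, for threonine, did not show the split within αGlu. It stood at 22.2, 24.3 and 25.6 CPM in Ctr against 30.3, 32.2 and 29.4 CPM in αGlu. On the log2 scale the difference was 0.35 ± 0.09 (adjusted p 0.156 by the same test). The log2 CPM of αGlu 1 was 0.02 below the mean of αGlu 2 and 3 for this gene. Hars2, for histidine, had 19.8, 22.6 and 22.7 CPM in Ctr and 24.1, 22.9 and 23.4 CPM in αGlu, so the groups were separated by less than 1 CPM. It shares 4.56% of its exonic bases with Hars on the opposite strand.

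Aars2 and Pars2 followed the pattern of Rars. Aars2, the mitochondrial alanine enzyme, had 8.90, 8.48 and 7.05 CPM in Ctr, 7.74 CPM in αGlu 1, and 14.4 and 11.2 CPM in αGlu 2 and 3. Pars2, for proline, had 5.22, 4.096 and 4.08 CPM in Ctr, 4.19 CPM in αGlu 1, and 6.64 and 6.42 CPM in αGlu 2 and 3. In both genes αGlu 1 lay within the Ctr range, and αGlu 2 and 3 lay above it. The log2 fold changes were 0.46 ± 0.24 and 0.37 ± 0.23 (edgeR's quasi-likelihood test, adjusted p 0.278 and 0.333). Without αGlu 1 they were 0.65 ± 0.16 and 0.54 ± 0.17 (adjusted p 0.0198 and 0.0470).

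Ears2, the mitochondrial glutamate enzyme, which also loads glutamate onto the mitochondrial glutamine tRNA, had 4.04, 5.68 and 6.03 CPM in Ctr and 5.79, 6.77 and 5.76 CPM in αGlu. The groups overlapped, and the lowest library was Ctr 1, with 89 reads. The log2 fold change was 0.22 ± 0.19 with a 95% interval of -0.25 to 0.69. A 1.5-fold increase lies inside this interval, and with these libraries it could not be told from no difference. The 4 genes that finish mitochondrial glutamine and methionine tRNAs, Qrsl1, Gatb, Gatc and Mtfmt, had a median of 0.03, with Gatb and Gatc higher with no overlap at log2 fold changes of 0.09 and 0.12.

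Mars2, the mitochondrial methionine enzyme, was the only member that was lower in every αGlu library. It lies at chr1:55237177-55248470 on the plus strand. It was the least abundant member per length, with 105 to 164 reads in a library. Its level was 6.95, 6.77 and 7.47 CPM in Ctr and 6.02, 5.16 and 4.80 CPM in αGlu 1, 2 and 3. αGlu 1 again lay between Ctr and the other αGlu libraries. The log2 fold change was -0.41 ± 0.14 (edgeR's quasi-likelihood test, adjusted p 0.171), and -0.51 ± 0.14 without αGlu 1 (adjusted p 0.0283). Its cytosolic counterpart Mars1 had a positive value with no overlap, as described above. Iars2, for isoleucine, had 74.6, 71.5 and 60.1 CPM in Ctr and 61.4, 68.4 and 63.7 CPM in αGlu. The groups overlapped, and the log2 fold change was -0.09 ± 0.10. Of its exonic bases 24.2% are shared with genes on the opposite strand, mainly Rab3gap2, whose log2 fold change was -0.39.

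Lars2, the mitochondrial leucine enzyme at chr9:123366927-123462666 on the plus strand, had the lowest fold change of the family, and it rested on one Ctr library. Its level was 39.0, 166 and 45.7 CPM in Ctr 1, 2 and 3, and 45.02, 46.2 and 30.1 CPM in αGlu 1, 2 and 3. The value in Ctr 2 was 3.58 times the next highest library, while the other 5 libraries lay between 30.1 and 46.2 CPM. The log2 fold change was -1.05 ± 0.59 (edgeR's quasi-likelihood test, adjusted p 0.299), and -0.07 without Ctr 2. The TPM of Lars2 in Ctr 2 was 44.5, above the 30.2 TPM of cytosolic Lars in that library.

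Other RNAs were high in Ctr 2 together with Lars2. Only 9 of the 11933 genes tested exceeded 2 times every other library there, and 6 of them are not messengers of proteins. CT010467.1, listed as ribosomal RNA, stood at 2874 CPM in Ctr 2 and at 246 to 458 CPM in the other 5 libraries. The 7SL RNA genes Rn7s1 and Rn7s2 were at 19.1 and 22.6 CPM in Ctr 2 and at most at 1.84 and 2.05 CPM elsewhere. Mir6236 was at 37.4 CPM against at most 7.91 CPM, and Rn7sk at 10.6 CPM against at most 3.998 CPM. Ribosomal, 7SL and 7SK RNAs are known to carry no poly(A) tail. Their part in the level of Lars2 was not tested. The transcripts of Lars2 in GENCODE release M21 were compared with those of CT010467.1, Rn7s1, Rn7s2, Rn7sk and Mir6236. No stretch of 16 bases or more was shared on either strand. Tmem267, a protein-coding gene also raised in Ctr 2, shared a stretch with Lars2 at a tested length of 20 bases. Of the 50-base stretches of Lars2, 0.2% occurred in transcripts of other genes. Sequence outside the transcripts of this release was not compared.

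**Figure D3:**
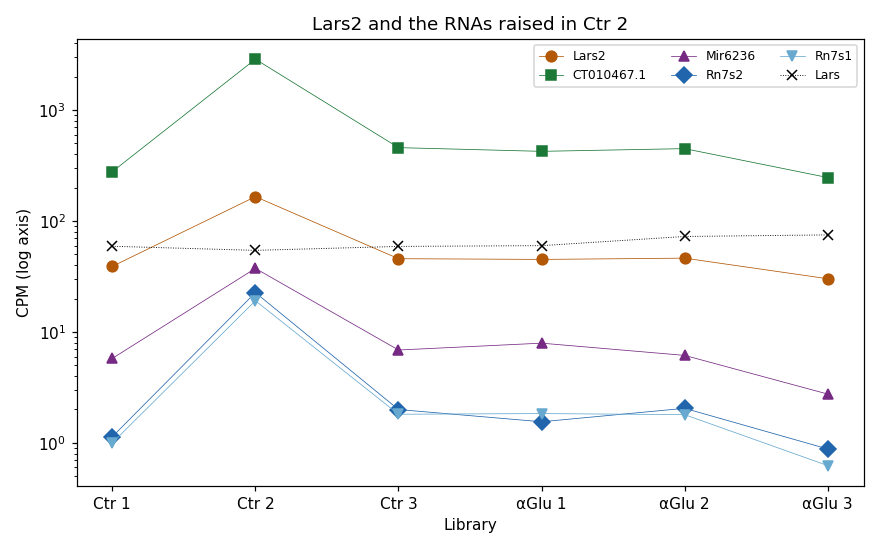
CPM on a log axis for Lars2, cytosolic Lars and 4 noncoding RNAs in each of the 6 libraries, with thin lines to guide the eye. Lars2 reaches 166 CPM in Ctr 2 and lies between 30.1 and 46.2 CPM in the other libraries, the noncoding RNAs peak in the same library, and Lars stays between 54.3 and 74.9 CPM.

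Levels between genes were compared as TPM. In Ctr, cytosolic enzymes ranged from 15.8 TPM for Yars to 136 TPM for Nars with a median of 41.0 TPM, and mitochondrial enzymes from 1.89 TPM for Mars2 to 23.3 TPM for Iars2 with a median of 6.91 TPM. The 3 most abundant members were Nars at 136 ± 9.29 TPM, Rars at 133 ± 10.01 TPM and Gars at 73.3 ± 7.60 TPM (SD, n = 3). Nars and Rars overlapped, and both were above Gars in every Ctr library. The 3 least abundant were Ears2 at 3.07 ± 0.58 TPM, Nars2 at 2.05 ± 0.20 TPM and Mars2 at 1.89 ± 0.10 TPM. Nars2, for asparagine, overlapped with Mars2 and lay below Ears2. It had 4.997, 4.26 and 4.96 CPM in Ctr and 5.22, 4.44 and 4.69 CPM in αGlu, with a log2 fold change of 0.01 ± 0.15. The order of the 35 members was the same with the deposited RPKM. Both measures scale the same reads by exon length and depth, so this is not a separate check of the order.

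Each of 16 pairs of a cytosolic and a mitochondrial gene for the same amino acid could be set side by side, Eprs entering with both Ears2 and Pars2. In 15 pairs the cytosolic gene was higher in every Ctr library, by 2.11 times for Iars over Iars2 up to 66.3 times for Nars over Nars2, with a median ratio of 6.12 over all 16. The exception was Lars and Lars2, whose Ctr ranges overlapped because of Ctr 2. The fold change of the cytosolic gene was the higher of the pair in 9 of 16, and that of the mitochondrial gene in the others.

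**Figure D4:**
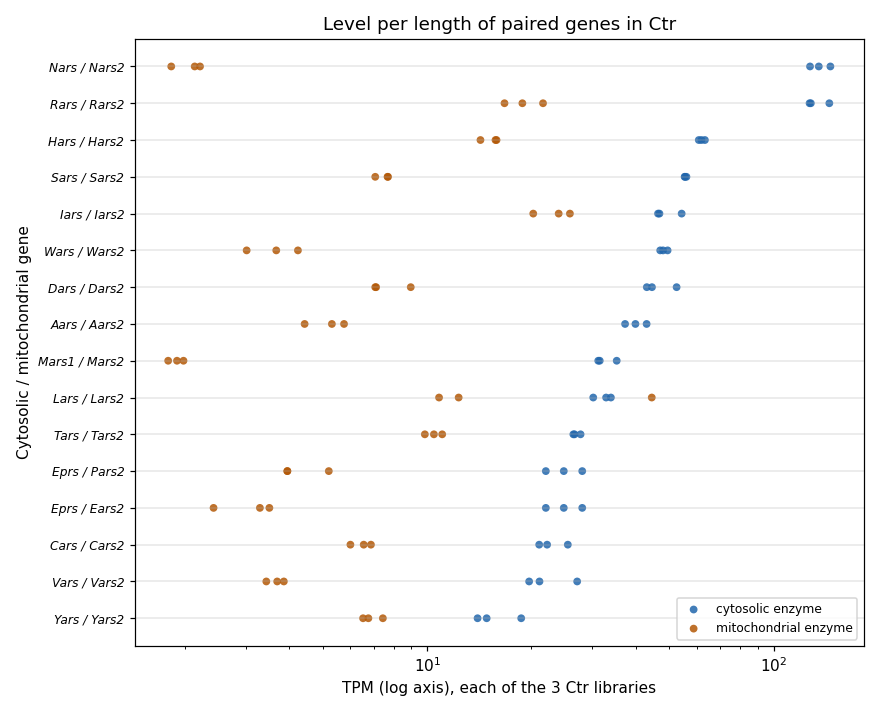
TPM on a log axis in each of the 3 Ctr libraries for 16 pairs of genes that encode the cytosolic and the mitochondrial enzyme for the same amino acid. The cytosolic points lie to the right in 15 pairs, from 2.11 to 66.3 times the mitochondrial mean, and one Lars2 point, Ctr 2, lies to the right of Lars.

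Split by catalytic class, the 16 class II members had a median of 0.15 on the log2 scale, with 6 higher with no overlap. The 19 class I members had 0.09, with 3 higher and 1 lower, against 14.2% and 15.9% of all genes. Eprs, which holds a domain of each class, was put in class I. Related genes outside the symbol rule had negative values. Farsb, a subunit of cytosolic phenylalanine synthetase, had 53.9, 45.9 and 51.5 CPM in Ctr and 42.6, 41.8 and 43.6 CPM in αGlu, with a fitted log2 fold change of -0.24, and the threonine paralogue Tarsl2 had one of -0.95. Together with Farsa, all 3 of these genes were lower with no overlap, 2 with an unadjusted p under 0.05 and 0 called. The complex's scaffold genes Aimp1 and Eef1e1 had 0.18 and -0.16.

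Genes that share regulation or use with the synthetases were described by lists. For these lists and those of the next paragraph, the shares of all genes tested with no overlap were 14.2% higher and 15.9% lower. Of 20 genes of the amino acid response 16 were tested, 4 were higher with no overlap, 2 were lower and 0 were called, and their median log2 fold change was 0.29. Atf4, the transcription factor that drives this response, had 172, 171 and 186 CPM in Ctr, 178 CPM in αGlu 1, and 263 and 227 CPM in αGlu 2 and 3, so that αGlu 1 lay inside the Ctr range and the other αGlu libraries above it. Its log2 fold change was 0.34 ± 0.16. The list held large values of both signs, since Nupr1, a stress-induced chromatin protein, had 4.21, whereas Psat1, an enzyme of serine synthesis, had -2.02. The 3 genes for sensing of uncharged tRNA, Eif2ak4, Gcn1 and Eif2s1, had a median of 0.06 with 0 called, and Eif2s1 and Eif2ak4 had log2 fold changes of 0.11 and 0.06.

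Of 78 genes of the mitochondrial ribosome, 58 had positive fold changes with a median of 0.12, 22 were higher with no overlap and 3 were lower, with Mrpl52 at 1.05 and Mrps6 at -0.89 as the extremes. For the 9 mitochondrial translation factors the median was 0.04, with Mtrf1 and Gfm2 at 0.36 and -0.12. The 15 genes of ribosome biogenesis had a median of -0.11, none of them higher with no overlap and 6 lower, among them the growth regulator Myc at -2.28 and the pseudouridine synthase Dkc1 at -0.58. The 10 genes of mitosis had a median of -1.42 with 6 lower, led by Ube2c at -4.06 and Plk1 at -3.17. Both were near the floor in αGlu, with at most 0.29 CPM for Ube2c and 0.46 CPM for Plk1. In Ctr 1, 2 and 3, Ube2c had 4.22, 0.96 and 1.30 CPM and Plk1 had 5.18, 1.25 and 2.46 CPM. The size of both changes thus leaned on Ctr 1. The proliferation marker Mki67 of this list had a positive value, 1.67, with 49.2, 13.2 and 18.8 CPM in Ctr, 11.9 CPM in αGlu 1, and 108 and 138 CPM in αGlu 2 and 3. The trans-editing genes Prorsd1 and Dtd2, which clear wrongly charged tRNA, had 0.47 and -0.23, and the selenocysteine genes Pstk and Sepsecs had 0.40 and -0.11.

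Promoter sequences from RefSeq (GRCm38.p6, 250 bases before to 50 after the start) were matched for 25 of the 35 members and searched on both strands for TGATGNAA, the core of the C/EBP-ATF response element to which ATF4 binds, and for CACGTG, the E-box. TGATGNAA was present in 5 of the 25 members and in 4.51% of all 27025 genes with a window, or 3.97% of the 32851 windows. One match in each of these 5 members is shown because they include Aars, the member with the highest fold change, and the matches shown begin between 30 bases before and 10 after the start. Each run of 30 bases reads 5′ to 3′ in the direction of the gene, and capitals mark the match. Positions count the start as 1. The match read in this direction is the reverse complement in all but Yars.
Aars, chr8:111033840-111033869, plus strand, first base of the match at 10: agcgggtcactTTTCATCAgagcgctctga
Gars, chr6:55037960-55037989, plus strand, first base of the match at -30: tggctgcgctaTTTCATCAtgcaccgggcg
Iars, chr13:49682126-49682155, plus strand, first base of the match at 8: cactgtcagtaTTGCATCAcctccagacgc
Tars, chr15:11399655-11399684, minus strand, first base of the match at -15: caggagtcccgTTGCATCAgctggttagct
Yars, chr4:129189895-129189924, plus strand, first base of the match at 4: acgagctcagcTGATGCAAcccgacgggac
All 5 are cytosolic or serve both compartments. Their log2 fold changes were 0.60 for Aars, 0.28 for Yars, 0.13 for Tars, 0.11 for Iars and -0.13 for Gars, so the holders of the match spanned from the highest to one of the 4 lowest values. CACGTG was present in 4 of the 25 members, Aars, Iars, Tars and Ears2, and in 8.09% of genes, at other positions than TGATGNAA. A match of letters is a description of the sequence and not evidence of binding.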

How the data were processed

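Messenger RNA of 6 libraries was analysed, 3 of each group, grouped by the library names in the labels. Reads were processed by the authors in the Analysis Portal of QIAGEN. The build GRCm38 is named in the submitters' processing notes. How reads matching more than one gene were handled, the strand setting, the aligner and the annotation release are not given in the sources used here. The counts deposited are unnormalized whole reads per gene, over its exons. The deposited RPKM and TPM values were scaled by the authors for exon length and depth. The deposited CPM column was not used.

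Tests used the deposited counts in R 4.3.3 with edgeR 4.0.16: filterByExpr (minimum count 10, minimum total count 15), TMM factors, and a two-sided quasi-likelihood test with the group as the only term and Benjamini-Hochberg adjustment. The test was fitted to the whole table. SEs were derived from the F statistics. CPM given here are counts over TMM-scaled library sizes. Intervals cover 95%. All 6 libraries differed by more than sampling noise. Alternatives were DESeq2 1.42.0, limma-voom (limma 3.58.1), other factors and filters, the replicate block and each library left out. Coordinates and transcripts came from GENCODE release M21 (GRCm38), in which all 35 identifiers were found.

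By rule, values in every library are given for Eprs, Ears2 and Qars, for members with no overlap between groups (at most 12), for the 4 highest and 4 lowest fold changes, for the 3 highest and 3 lowest TPM in Ctr, for the 3 members in which αGlu 1 differed most from αGlu 2 and 3, and, as fold changes, for the 2 genes with the largest changes of each pathway list. Wars, Atf4, Mki67, Rab3gap2 and the RNAs raised in Ctr 2 were added after their values were seen. The members and lists were chosen with earlier results of these data known. One promoter match is not reported here.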

Additional observations from a re-analysis of the deposited data

How the results depend on the processing

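The count of members called was 0 with DESeq2, limma-voom, each other set of factors or filter, no fold limit, an adjusted p under 0.05 and each library left out, and 16 without αGlu 1 at any fold, a setting chosen after seeing the data. Leaving out 1 library gave 9 to 20 members higher with no overlap and 1 to 2 lower, and medians of 0.10 to 0.17. The highest counts were 20 without αGlu 1, against 33.7% of genes, and 16 without Ctr 1, against 19.1%. Without Ctr 2 or Ctr 3 there were 2 lower, against 19.7% and 20.8% of genes. Of 294 values of named members under alternatives 284 kept their direction and 10 reversed, all near 0. Eprs reversed to 0.0099 with upper-quartile factors and 0.0754 with library size alone, and ranged from -0.0874 to 0.0766 with 1 library left out. Nars2 reversed to -0.00042 with DESeq2 and -0.0039 with limma-voom, and ranged from -0.0636 to 0.0664. Qars ranged from -0.0183 to 0.0769. The cause was not tested. Whether equal replicate numbers pair the libraries is not stated. Deviations of same-numbered libraries correlated at 0.08, 0.06 and 0.15. Where a Ctr and an αGlu library had unequal numbers, the correlation ran from -0.11 to 0.05. Every same-numbered value was thus the higher, by a small margin for number 2, and pairing itself was not tested. With the replicate block, 0 members and 17 genes were called and the member median was 0.11. The lowest count of a member in a library was 73 reads, for Pars2, and how far depth limits the test was not tested.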
